A study of Mus musculus with 12 samples.

Results

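RNA of 10 transcription factor genes was followed in bone marrow-derived macrophages at rest and after inflammatory activation, with and without an inhibitor of triglyceride synthesis. The genes encode members of the AP-1 complex and factors of the early response to stimulation. They are Fos and Fosl2 (Fos family), Jun, Junb and Jund (Jun family), Egr1 and Egr2 (EGR zinc fingers), and Maff, Mafg and Mafk (small Maf proteins). Each was found by its symbol, and all 10 of the 47937 genes in the count table were matched once and had enough reads to be tested among 11760 genes.

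The macrophages were grown from C57BL/6 bone marrow for 7 days with CSF-1 (20 ng/ml), a growth factor that was kept in the medium of every group. The mice were 6 to 8 weeks old, and no genetic modification is named. The groups hold 3 libraries each, and all were taken at 18 h. M0 macrophages received nothing further, and IFNγ + LPS macrophages received IFNγ (50 ng/ml) and LPS (20 ng/ml). The groups named with DGAT1i were treated likewise and also received T863 (50 μM) throughout. T863 inhibits DGAT1, an enzyme that joins a fatty acid to diacylglycerol to make triglyceride. No vehicle is named in the labels for the groups without T863. For 2 of the 3 libraries of M0 with DGAT1i, a label gives the compound another number while a second label of the same library reads T863, and both were taken as T863. The labels do not say whether the libraries came from separate mice or cultures. The p-values measure the spread between these libraries.

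Libraries held 4996014 to 6621671 reads on genes. Levels are given as CPM, the reads of a gene per 1000000 reads of the library after TMM scaling, and 1 CPM is worth 4.28 to 7.58 reads. Macrophage markers were present throughout, with a sum of 7923 to 18075 CPM over 8 genes and none of the 8 without reads in any group. Markers of lymphocytes and mast cells summed to at most 0.375 CPM and those of stromal cells to at most 2.74 CPM. The sum of the 6 dendritic cell markers rose on activation, from 0.133 to 0.835 CPM in M0 to 14.4 to 19.6 CPM in IFNγ + LPS. With DGAT1i it was 0.264 to 0.710 CPM in M0, overlapping the range without, and 6.38 to 9.11 CPM in IFNγ + LPS, below it. Of the 3 that were tested, all were called higher on activation, against 37.1% of all genes, and Xcr1 (-2.65) and Clec9a (-1.73) were called lower on the log2 scale with DGAT1i in IFNγ + LPS, against 16.3% of all genes. Ccr7 was at 0.33 there and not called (adjusted p = 0.514), and Siglech had no reads in either activated group. Flt3 and Zbtb46 were too low to be tested, with means of 0.130 and 0.635 CPM in IFNγ + LPS. The 10 neutrophil markers summed to 37.6 to 45.9 CPM in M0 and 16.8 to 27.3 CPM in IFNγ + LPS, and to 29.2 to 37.2 and 64.5 to 82.4 CPM with DGAT1i, with Retnlg and Elane without reads in both activated groups. Of 5 tested, 3 were called lower on activation, against 36.2% of all genes. With DGAT1i in IFNγ + LPS, Ngp, Ltf, S100a8 and S100a9 were called higher, against 13.5% of all genes, and Mmp8 was at -0.54 on the log2 scale and not called. The share of reads on mitochondrial genes moved with both factors, at 4.72% to 4.86% in M0 and 3.88% to 4.21% in IFNγ + LPS, and at 5.56% to 6.19% and 4.52% to 5.32% with DGAT1i. No pair of groups compared overlapped in it. The part of other cells and of this share in the results below was not tested. In bulk RNA, fewer cells of a type and less RNA per cell cannot be told apart.

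AP-1 is a dimer of leucine zipper proteins. A Jun protein can pair with itself or with a Fos protein, which cannot pair with itself, and the pair binds DNA and turns genes on or off according to its partners. Fos, Egr1 and several others are called early response genes because growth factors and LPS induce them within minutes, through MAP kinases and the serum response factor, and their RNA is short-lived. EGR proteins are zinc finger factors, and EGR2 takes part in the macrophage program. Small Maf proteins lack a domain for activating transcription and work as partners of larger leucine zipper proteins such as NRF2 and BACH1. At 18 h the samples are far past the early wave of induction.

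Sequences from the promoters and 3′ untranslated regions of these genes are shown first, because early response genes are known for sites of both kinds. RefSeq promoters (GRCm38.p6, 250 bases before to 50 after a start site) were matched for 9 of the 10 genes, Egr1 being the one without, with 15 promoters in all. Both strands were searched, but no sequence outside these promoters, so that sites further away or near Egr1 would not be seen. The CArG box, the site of the serum response factor, was found in the promoters of Egr2 alone, against 1.81% of 27025 genes in the promoter table. The CRE sequence TGACGTCA was found in Maff alone, against 2.03% of genes. The EGR sequences GCGGGGGCG and GCGTGGGCG were found in Fosl2, Maff and Mafk, against 3.93% of genes. The AP-1 sequence TGAGTCA, or TGACTCA on the other strand, was in none of the 15 promoters and in 5.95% of genes. None of these matches overlapped another. The windows below are on the plus strand, with the match in capitals. They lie in Egr2 at chr10:67537474-67537523 and chr10:67537777-67537826, each match being 72 to 63 bases before 1 of the annotated start sites, in Maff at chr15:79347471-79347518 (CRE) and chr15:79347412-79347460 (EGR), in Fosl2 at chr5:32136373-32136421 and in Mafk at chr5:139791460-139791508. A match is a description of letters and not of binding.
Egr2, CArG box nearer the 5′ end: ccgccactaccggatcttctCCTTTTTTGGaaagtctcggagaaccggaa
Egr2, CArG box nearer the 3′ end: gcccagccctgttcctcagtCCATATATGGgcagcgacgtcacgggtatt
Maff, CRE: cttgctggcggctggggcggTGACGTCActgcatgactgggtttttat
Maff, EGR: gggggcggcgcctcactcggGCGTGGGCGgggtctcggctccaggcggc
Fosl2, EGR: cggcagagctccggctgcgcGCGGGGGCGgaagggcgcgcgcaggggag
Mafk, EGR: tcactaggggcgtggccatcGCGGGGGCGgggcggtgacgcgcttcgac

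The 3′ untranslated region of many short-lived RNAs holds AU-rich elements, in which ATTTA recurs and to which proteins of the Zfp36 family bind. In GENCODE M21, ATTTA was present 4.91 times per kb in the 3′ untranslated region of Fos, 4.12 times in Junb, 3.28 in Maff and 3.24 in Jun. The median over 10756 tested genes was 1.25 per kb, and 9 of the 10 genes were above it, Mafg with 0.96 being the exception. The longer form TTATTTA, followed by 2 bases that are each A or T, was found in 6 of the 10 genes and in 17.7% of the 10756. These shares were not adjusted for the length of the region, which in the 6 genes ran from 815 bases (Fos) to 4653 bases (Fosl2). The count of ATTTA was added after expression values had been seen. Maff holds 2 copies and the other five genes 1 each. The first site of each gene is shown on the strand of the RNA, as DNA letters, with the element in capitals.
Fos: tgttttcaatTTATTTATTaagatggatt
Maff: ttccacactcTTATTTATTgcacgaatct
Fosl2: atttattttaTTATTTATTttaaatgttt
Egr2: gttaactaacTTATTTAAAgggggacgta
Mafk: atggacatttTTATTTAAAgataaaagtg
Mafg: atatagccctTTATTTAAAagagaagttc

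Activation with IFNγ + LPS divided the genes. Junb, Jund, Maff, Mafg and Mafk were higher after 18 h than in M0, and Fos, Fosl2, Jun, Egr1 and Egr2 were lower. All 10 passed edgeR's quasi-likelihood test at an adjusted p under 0.05, 5 in each direction. Of all 11760 genes, 37.1% were called higher and 36.2% lower, so that a call alone sets no gene apart in this comparison. The median absolute log2 fold change was 1.76 over the 10 genes and 0.59 over all genes tested. With DGAT1i in both groups, 5 of the 10 were again called higher and 4 lower, against 35.3% and 35.3% of all genes, Jun being the one not called. Between the inhibitor and no inhibitor, 6 of the 10 genes differed in IFNγ + LPS and 2 in M0, against 3508 and 2869 of the 11760 genes, so that the share in M0 was no larger than that over all genes. The plot of CPM by library gives all values.

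**Figure D1:**
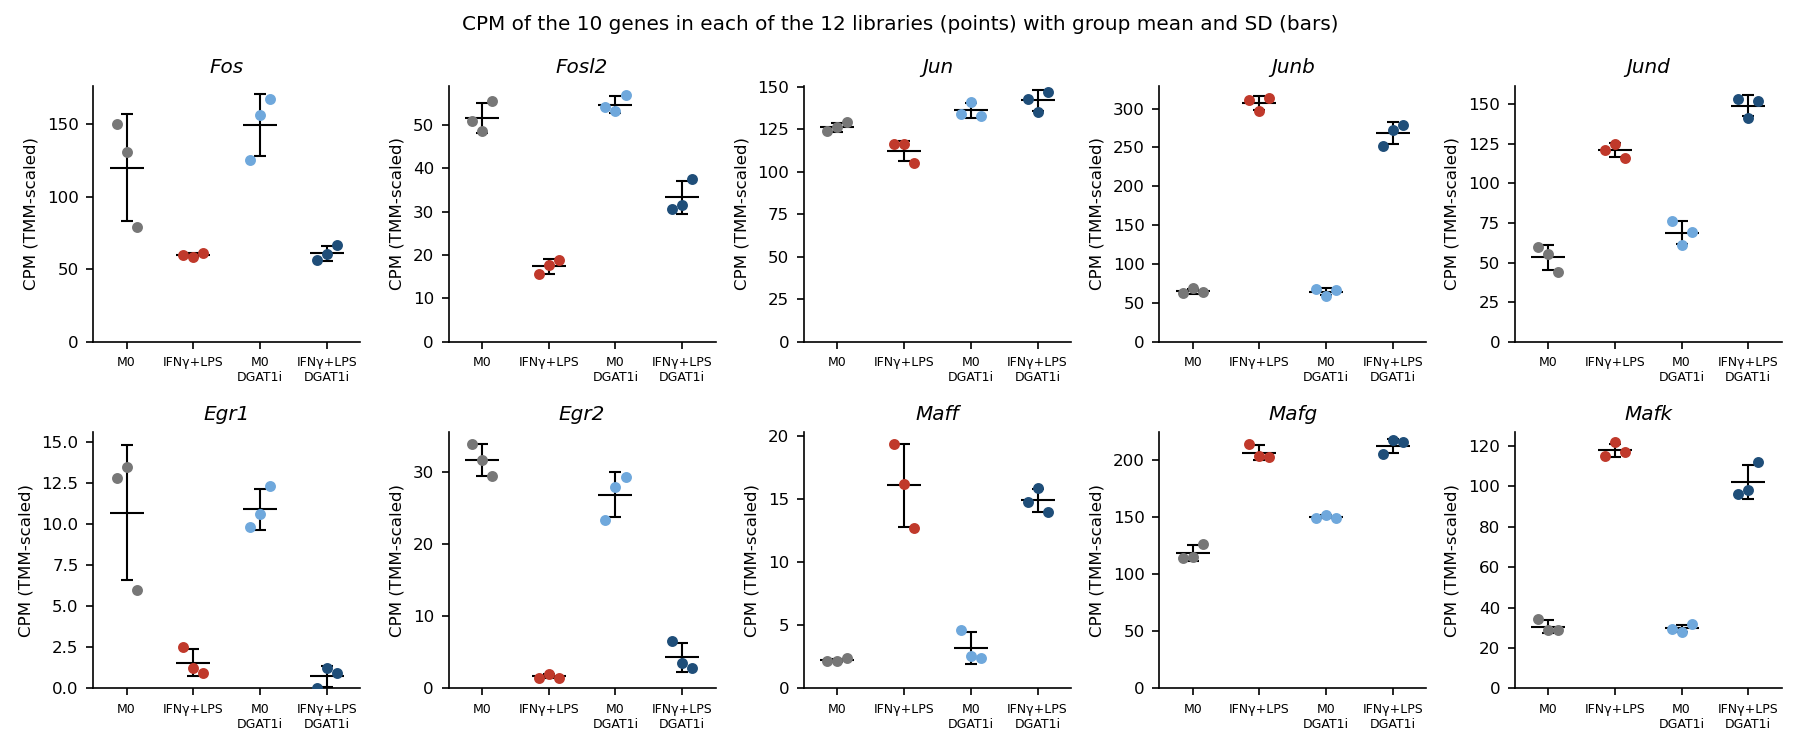
CPM (TMM-scaled, linear axes from 0) of each of the 10 genes, with 1 point per library, a horizontal bar for the mean and an error bar for the SD of 3 libraries, in M0, IFNγ + LPS and the same groups with DGAT1i. Junb and Mafk stand apart between M0 and IFNγ + LPS with and without DGAT1i, and in M0 the point of replicate 3 is far below the other points for Fos (79.2 CPM) and Egr1 (5.99 CPM).

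Ranked by CPM per kb of exons, which allows levels to be compared between genes, M0 macrophages held most Fos RNA (51.1 ± 15.6 CPM per kb, SD, n = 3), then Jun (39.5 ± 0.788), Jund (31.9 ± 4.76) and Junb (28.4 ± 1.39). Fos and Jun, and Jund and Junb, were neighbours whose means ± SD overlapped. Mafg (21.1), Egr2 (9.33), Mafk (7.85), Fosl2 (5.33), Egr1 (2.40) and Maff (0.858) followed, each apart from the next by more than their SDs. In IFNγ + LPS the order began with Junb (134 ± 3.95 CPM per kb) and Jund (72.5 ± 2.66). Mafg (36.7) and Jun (35.2) came next with overlapping SDs, then Mafk (30.2) and Fos (25.4). Maff (6.21), Fosl2 (1.80), Egr2 (0.486) and Egr1 (0.351) ended it, the last pair with overlapping SDs. With DGAT1i the first places were Fos (63.5 ± 9.11), Jun (42.7) and Jund (41.3) in M0, where Jun and Jund overlapped. They were Junb (116 ± 6.14), Jund (89.1) and Jun (44.5) in IFNγ + LPS, each apart from the next. Maff was last in M0 and Egr1 last in IFNγ + LPS, both with and without the inhibitor.

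Fos (ENSMUSG00000021250.13, chr12:85473890-85477273 on GRCm38, plus strand) encodes c-Fos, the Fos family partner that is best known for rapid and brief induction. Its CPM was 150, 131 and 79.2 in M0 and 59.6, 58.3 and 61.3 in IFNγ + LPS. The groups did not overlap, although the lowest M0 library lay nearer to the activated libraries than to the other M0 libraries. Fos fell by 1.01 on the log2 scale (SE 0.24, adjusted p = 0.00447), that is, it was 2.01-fold lower. Without M0 replicate 3 the change was -1.23 (adjusted p = 7.20e-10). With DGAT1i, Fos was at 125, 156 and 167 CPM in M0 and at 56.0, 60.3 and 66.5 CPM in IFNγ + LPS. The inhibitor's groups overlapped those without it in both states. The log2 difference for DGAT1i was 0.32 (95% confidence interval -0.16 to 0.79) in M0 and 0.03 (-0.67 to 0.72) in IFNγ + LPS, and neither was called. The fit used 1 spread per gene for all 12 libraries, so that the spread of M0 also entered the second interval. The SD of Fos was 30.6% of the mean in M0, 2.46% in IFNγ + LPS and 8.71% in IFNγ + LPS with DGAT1i.

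Fosl2 (ENSMUSG00000029135.10, chr5:32135801-32157842, plus strand) encodes FRA2, a Fos family protein without the strong activation domain of c-Fos. Its CPM was 51.0, 48.5 and 55.4 in M0 and 15.6, 17.6 and 18.9 in IFNγ + LPS, so that activation left about 1 read in 3. The log2 change was -1.56 (SE 0.10, adjusted p = 2.35e-20), a 2.96-fold decrease. With DGAT1i it was at 54.1, 53.2 and 56.9 CPM in M0 and at 30.7, 31.5 and 37.6 CPM in IFNγ + LPS. Thus the inhibitor made no called difference at rest, with a log2 difference of 0.09 (95% confidence interval -0.07 to 0.24). In IFNγ + LPS all 3 libraries with DGAT1i were above all 3 without, and Fosl2 was 1.90-fold higher (log2 0.92, SE 0.12, adjusted p = 4.54e-09). The decrease on activation was 1.65-fold with DGAT1i (log2 -0.72, SE 0.09, adjusted p = 5.18e-10). The test of the difference between the inhibitor's effects in the 2 states gave a log2 value of 0.84 (SE 0.14, adjusted p = 8.33e-06).

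Taken per kb, Fos made up most of the RNA of this pair in every group. Its share was 89.9% ± 3.82 (SD, n = 3) in M0 and 93.4% ± 0.547 in IFNγ + LPS. With DGAT1i these shares were 91.7% ± 1.06 and 88.3% ± 0.405. The sum of the pair was 56.4 ± 15.3 CPM per kb in M0 and 27.2 ± 0.720 in IFNγ + LPS. With DGAT1i the sums were 69.2 ± 9.21 and 29.3 ± 2.63.

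Jun (ENSMUSG00000052684.4, chr4:95049034-95052222, minus strand) encodes c-Jun, the most active of the Jun proteins in AP-1. With TMM scaling it changed least among the 10 genes on activation. Scaled by library size only, Mafg changed least (0.33), and Jun was at -0.64. The CPM of Jun was 124, 126 and 129 in M0 and 116, 116 and 105 in IFNγ + LPS, and the groups lay next to each other without overlap. The log2 change was -0.17 (SE 0.06, adjusted p = 0.0109), and it was -0.12 and no longer called without replicate 3 of IFNγ + LPS (adjusted p = 0.112). With DGAT1i, Jun was at 134, 141 and 133 CPM in M0 and at 143, 135 and 147 CPM in IFNγ + LPS. In IFNγ + LPS it was 1.26-fold higher with the inhibitor (log2 0.34, SE 0.06, adjusted p = 1.69e-05), with no overlap. In M0 the log2 difference was 0.11 (SE 0.06, adjusted p = 0.165), not called, although the 3 libraries with DGAT1i were above those without. With DGAT1i the change on activation was 0.06 (95% confidence interval -0.06 to 0.18) and was not called. Scaled by library size only, it was -0.36 (adjusted p = 2.60e-07), a setting that moved the median of all genes to -0.43. The difference between the inhibitor's effects in the 2 states was 0.23 (SE 0.08, adjusted p = 0.0476), just past the threshold, and it was lost in 10 of the 12 fits that left out 1 library.

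Junb (ENSMUSG00000052837.5, chr8:84974484-84978718, minus strand) encodes a Jun protein that activates transcription more weakly than c-Jun and can hold it back. It was among the most strongly increased of the 10 genes and had the highest level after activation. Its CPM was 63.2, 69.0 and 63.8 in M0 and 311, 297 and 314 in IFNγ + LPS. With DGAT1i, Junb was at 67.7, 59.3 and 66.6 CPM at rest and at 252, 272 and 279 CPM after activation. Both pairs of groups were far apart. Activation raised Junb 4.70-fold (log2 2.23, SE 0.06, adjusted p = 4.16e-38), and 4.14-fold with DGAT1i (log2 2.05, SE 0.06, adjusted p = 6.13e-36). In IFNγ + LPS the 3 libraries with DGAT1i were below the 3 without, and Junb fell by 0.20 on the log2 scale (SE 0.05, adjusted p = 0.00385). In M0 the difference was -0.02 (95% confidence interval -0.15 to 0.12). The difference between these 2 effects was -0.18 (SE 0.09, adjusted p = 0.140) and was not called.

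Jund (ENSMUSG00000071076.5, chr8:70698949-70700616, plus strand) encodes the Jun protein that most cells hold at a steady level. Its CPM was 59.6, 55.7 and 44.3 in M0 and 121, 125 and 116 in IFNγ + LPS, a 2.27-fold increase (log2 1.19, SE 0.08, adjusted p = 5.38e-16). With DGAT1i it was at 76.1, 61.3 and 69.1 CPM in M0 and at 153, 141 and 152 CPM in IFNγ + LPS. Jund was the one gene of the 10 that was called higher with the inhibitor in both states. The log2 difference was 0.38 (SE 0.08, adjusted p = 6.10e-04) in M0 and 0.30 (SE 0.08, adjusted p = 0.00229) in IFNγ + LPS, with no overlap of groups in either. Without the low replicate 3 of M0, the value in M0 was 0.26 (adjusted p = 0.0135). The difference between the effects in the 2 states was -0.08 (95% confidence interval -0.30 to 0.15).

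The makeup of Jun family RNA shifted with activation. Per kb, Jun was 39.7% ± 2.57 (SD, n = 3) of the 3 genes in M0 and 14.6% ± 0.674 in IFNγ + LPS, while Junb went from 28.5% ± 1.32 to 55.4% ± 1.67. Jund was at 31.8% ± 3.52 and 30.0% ± 1.05. The sum rose from 99.8 ± 4.51 to 241 ± 2.68 CPM per kb. With DGAT1i, the sum was 112 ± 5.22 in M0 and 250 ± 7.50 in IFNγ + LPS, with Junb at 25.0% ± 0.831 and 46.5% ± 1.93. In IFNγ + LPS the inhibitor's libraries thus held a smaller share of Junb, and larger ones of Jun (17.8% ± 0.500) and Jund (35.7% ± 1.45), while the sums ± SD overlapped.

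**Figure D2:**
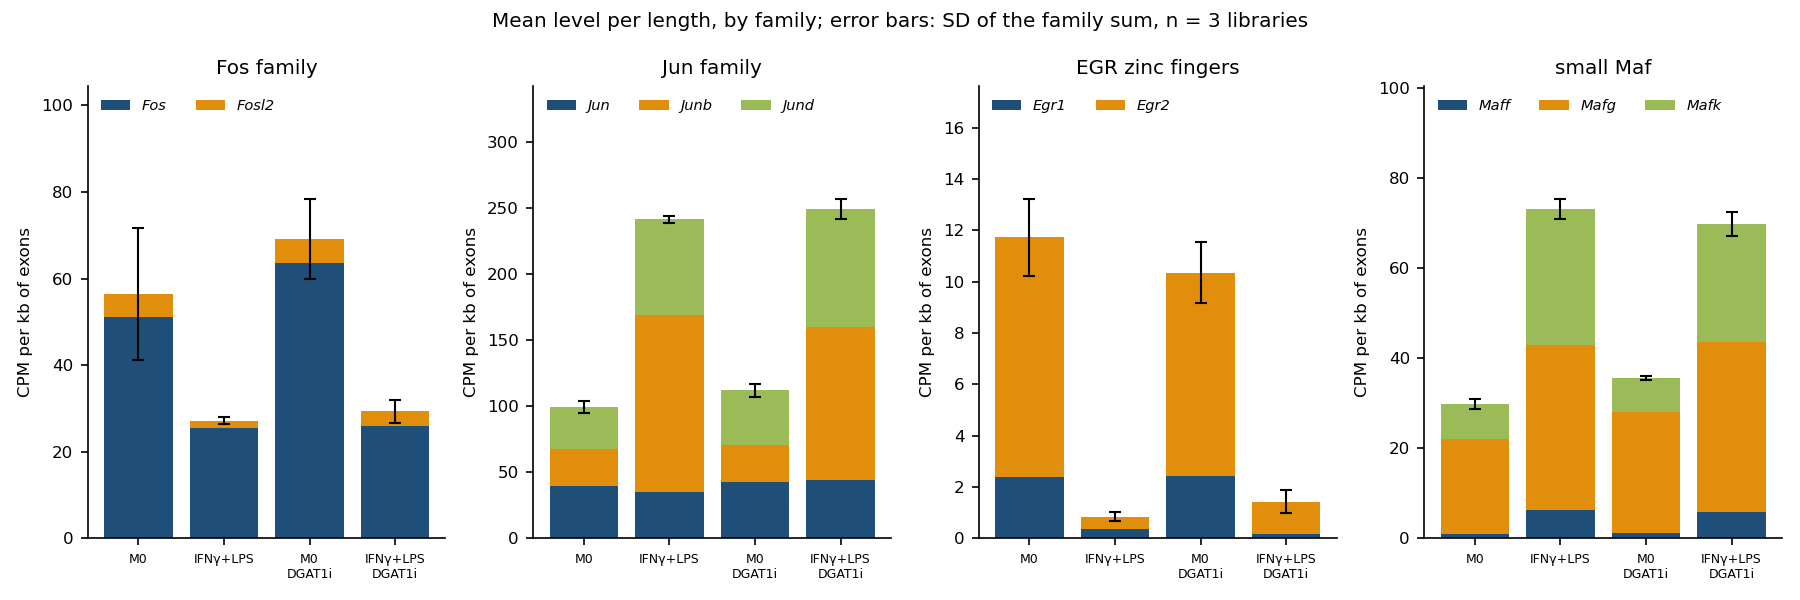
Mean CPM per kb of exons (linear axes from 0) in the 4 groups, stacked by gene within the Fos family, the Jun family, the EGR zinc fingers and the small Maf genes, with the SD of the family sum over 3 libraries as the error bar. The Jun family and the small Maf genes stand higher in IFNγ + LPS (241 and 73.2 CPM per kb) than in M0 (99.8 and 29.8), and the EGR genes lower (0.837 against 11.7).

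Egr1 (ENSMUSG00000038418.7, chr18:34859823-34864984, plus strand) was low in all groups. Its CPM was 12.8, 13.5 and 5.99 in M0, from 88, 101 and 43 reads, and 2.53, 1.26 and 0.937 in IFNγ + LPS, from 12, 7 and 5 reads. Even the low M0 library was above all activated ones. Egr1 was 6.92-fold lower after activation (log2 -2.79, SE 0.43, adjusted p = 2.00e-05). With DGAT1i it was at 9.83, 10.6 and 12.3 CPM in M0 and at 0, 1.25 and 0.934 CPM in IFNγ + LPS, the latter from 0, 6 and 4 reads. The decrease was then 14.8-fold (log2 -3.89, SE 0.53, adjusted p = 5.12e-06). For DGAT1i in IFNγ + LPS the log2 difference was -1.08 with a 95% confidence interval of -2.91 to 0.76, so that a change was not detectable at this depth. In M0 it was 0.02 (-0.54 to 0.58), and -0.27 (adjusted p = 0.342) without M0 replicate 3.

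Egr2 (ENSMUSG00000037868.15, chr10:67535475-67542188, plus strand) showed the largest decrease of the 10 genes on activation without the inhibitor. Its CPM was 33.9, 31.7 and 29.5 in M0 and 1.47, 1.98 and 1.50 in IFNγ + LPS, the latter from 7, 11 and 8 reads. The groups were far apart, with an 18.8-fold decrease (log2 -4.24, SE 0.21, adjusted p = 5.60e-26). With DGAT1i, Egr2 was at 23.4, 28.0 and 29.4 CPM in M0 and at 6.59, 3.55 and 2.80 CPM in IFNγ + LPS, the latter from 32, 17 and 12 reads. All activated libraries with the inhibitor were above all those without, and Egr2 was 2.61-fold higher (log2 1.39, SE 0.34, adjusted p = 0.00102). It rested in part on replicate 1, which was 2.08 times the mean of the other two libraries, and without it the log2 difference was 0.93 and not called (adjusted p = 0.0621). In M0 the 3 libraries with DGAT1i were below the 3 without, at a log2 difference of -0.23 (SE 0.11, adjusted p = 0.106) that was not called. The difference between the effects in the 2 states was 1.62 (SE 0.36, adjusted p = 4.89e-04), and 1.17 (adjusted p = 0.0305) without the replicate named. The decrease on activation with DGAT1i was 6.13-fold (log2 -2.62, SE 0.18, adjusted p = 1.40e-19).

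Maff (ENSMUSG00000042622.13, chr15:79346621-79359076, plus strand), the small Maf gene that is known to be induced by cytokines, was the lowest of the 10 per kb in M0 and had the largest increase. Its CPM was 2.18, 2.13 and 2.37 in M0 and 19.4, 16.2 and 12.7 in IFNγ + LPS, a 7.14-fold difference (log2 2.84, SE 0.22, adjusted p = 2.94e-17). With DGAT1i it was at 4.65, 2.56 and 2.38 CPM in M0 and at 14.8, 15.9 and 14.0 CPM in IFNγ + LPS, 4.63-fold apart (log2 2.21, SE 0.21, adjusted p = 6.34e-14). The activated groups overlapped, and the log2 difference for DGAT1i was -0.10 (95% confidence interval -0.44 to 0.23). In M0 it was 0.52 (-0.06 to 1.11), with 1 library well above the others, and was not called (adjusted p = 0.200).

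Mafg (ENSMUSG00000051510.13, chr11:120625117-120633600, minus strand) was the most abundant small Maf gene per kb in every group. Its CPM was 114, 115 and 126 in M0 and 214, 203 and 202 in IFNγ + LPS, a 1.74-fold increase (log2 0.80, SE 0.06, adjusted p = 5.57e-19). With DGAT1i it was at 149, 152 and 149 CPM in M0 and at 205, 217 and 215 CPM in IFNγ + LPS. The resting libraries with the inhibitor lay between the resting and the activated libraries without it, and Mafg was 1.27-fold higher in M0 with DGAT1i (log2 0.34, SE 0.06, adjusted p = 2.55e-06). In IFNγ + LPS the groups overlapped, with a log2 difference of 0.04 (95% confidence interval -0.07 to 0.15). The difference between these effects was -0.30 (SE 0.08, adjusted p = 0.00409). Activation with DGAT1i raised Mafg 1.41-fold (log2 0.50, SE 0.06, adjusted p = 1.07e-11), a call that was lost with scaling by library size only (0.08, adjusted p = 0.186).

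Mafk (ENSMUSG00000018143.10, chr5:139791513-139802653, plus strand) was at 34.1, 29.0 and 28.7 CPM in M0 and at 115, 122 and 117 CPM in IFNγ + LPS, a 3.86-fold increase (log2 1.95, SE 0.08, adjusted p = 5.27e-30). With DGAT1i it was at 29.5, 28.0 and 31.7 CPM in M0 and at 96.3, 98.3 and 112 CPM in IFNγ + LPS, 3.43-fold apart (log2 1.78, SE 0.08, adjusted p = 2.32e-27). The activated libraries with the inhibitor were all below those without, by 0.21 on the log2 scale (change -0.21, SE 0.07, adjusted p = 0.0166). That call did not hold with DESeq2 (-0.22, adjusted p = 0.0676), nor without replicate 2 of IFNγ + LPS (adjusted p = 0.0654) or without replicate 1 (0.0871) or 2 (0.0699) of IFNγ + LPS with DGAT1i. In M0 the log2 difference was -0.04 (95% confidence interval -0.22 to 0.14).

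Together the 3 small Maf genes went from 29.8 ± 1.03 CPM per kb (SD, n = 3) in M0 to 73.2 ± 2.17 in IFNγ + LPS, and from 35.6 ± 0.362 to 69.7 ± 2.71 with DGAT1i. Mafg was 70.8% ± 2.67 of the sum in M0 and 50.2% ± 0.890 in IFNγ + LPS. Mafk went from 26.4% ± 2.75 to 41.4% ± 1.73, and Maff from 2.88% ± 0.0771 to 8.46% ± 1.50. With DGAT1i, Mafg was 75.1% ± 1.50 in M0 and 54.2% ± 1.21 in IFNγ + LPS.

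Across the 10 genes, DGAT1i in IFNγ + LPS was followed by higher levels of Fosl2, Jun, Jund and Egr2 and lower levels of Junb and Mafk, that is, 4 higher and 2 lower, against 13.5% and 16.3% of all genes tested. Of these, Fosl2, Jun and Egr2 had fallen on activation, and Jund, Junb and Mafk had risen. These comparisons share the IFNγ + LPS libraries, and their directions are therefore not independent. Fos, Egr1, Maff and Mafg were not called, and the interval for Egr1 was wide. In M0, Jund and Mafg were called higher, against 11.0% of all genes. No gene of the 10 was called lower by edgeR, against 13.4% of all genes, 1 (Egr2) had an unadjusted p under 0.05 in that direction, and DESeq2 called 0 lower. The test of the difference between the 2 inhibitor effects called Fosl2, Jun and Egr2 higher in IFNγ + LPS relative to M0 and Mafg lower, against 8.66% and 9.80% of all genes.

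**Figure D3:**
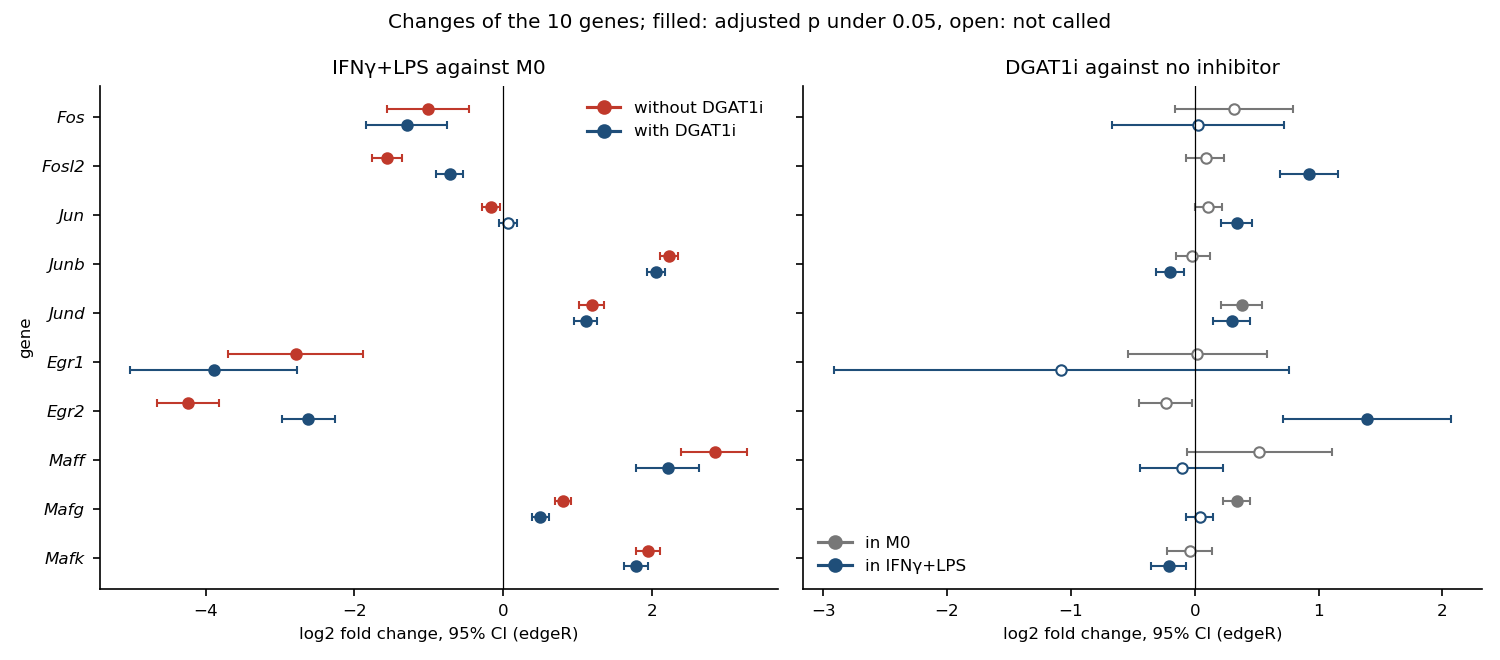
log2 fold changes of the 10 genes from edgeR with 95% confidence intervals, for IFNγ + LPS against M0 without and with DGAT1i, and for DGAT1i in M0 and in IFNγ + LPS, with filled points for an adjusted p under 0.05 and open points for genes not called. Activation moves Egr2 (-4.24) furthest down without DGAT1i and Egr1 (-3.89) furthest down with it, and the inhibitor in IFNγ + LPS moves Egr2 (1.39) and Fosl2 (0.92) furthest up, with the widest interval for Egr1.

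In M0, replicate 3 stood apart for some of the genes. It was at 0.563 times the mean of the other two M0 libraries for Fos, 0.456 times for Egr1 and 0.768 times for Jund, but at 1.03 for Jun, 0.965 for Junb and 1.11 for Fosl2 and Mafg. Of 13 other early response genes tested, 7 were lowest of their group in that library, against 1 to 6 in the other libraries. The ratio was 0.637 for Btg2, 0.701 for Klf2, 0.714 for Zfp36 and 0.720 for Ier2, which are named because they had the lowest ratios. Its total of 6048197 reads and its mitochondrial share of 4.86% were close to those of the other M0 libraries. The cause was not tested.

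**Figure D4:**
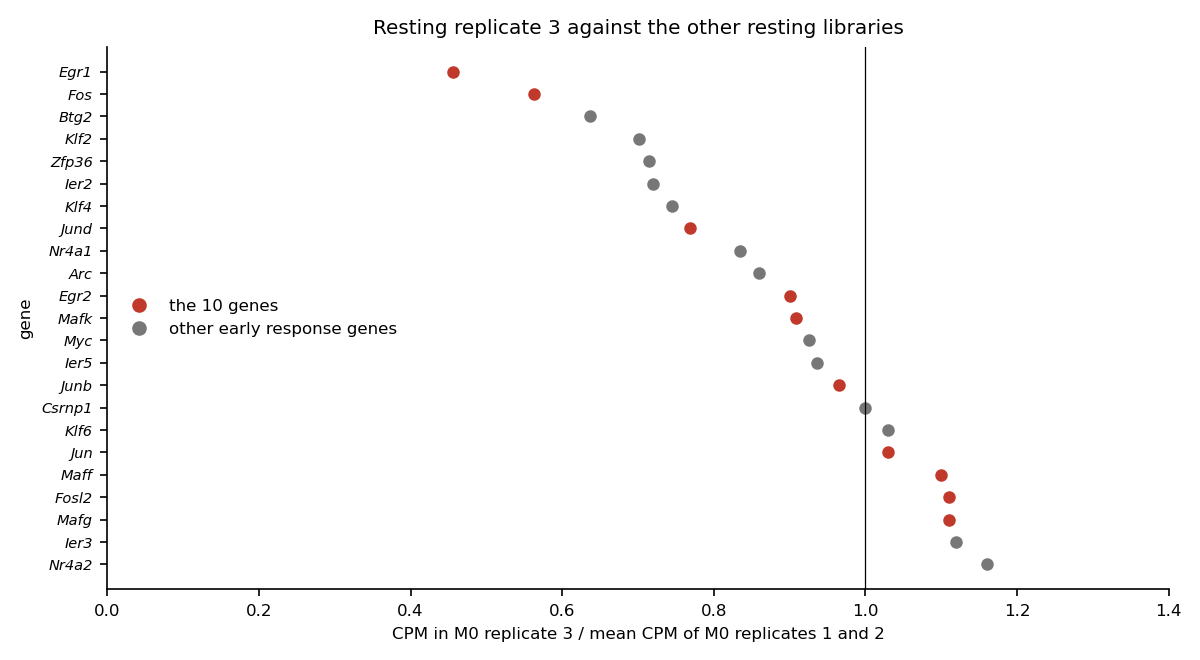
Ratio of the CPM in M0 replicate 3 to the mean CPM of M0 replicates 1 and 2 (linear axis from 0, vertical line at 1), with 1 point per gene, for the 10 genes and for 13 other early response genes. Egr1 (0.456) and Fos (0.563) have the lowest ratios, and the points reach 1.16 (Nr4a2).

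Most other AP-1 genes rose on activation. Of 9 genes in this list, 8 were called higher in IFNγ + LPS and 1 lower, against 37.1% and 36.2% of all genes, with a median log2 change of 1.91, against 0.01 for all genes. Scaled by library size only, 6 were called higher, since Atf2 (-0.11) and Atf7 (-0.04) lost their calls. Over all genes 25.0% of the 9342 calls were higher in that setting. These and the genes named below for a lost call were named after their values were seen. Batf2 and Batf encode partners of Jun proteins that lack an activation domain, Jdp2 a repressor that binds Jun, and Atf3 a stress-induced factor. Batf2 went from 2.68 ± 0.332 (SD, n = 3) to 314 ± 20.7 CPM, Jdp2 from 5.15 ± 0.325 to 241 ± 17.0, Batf from 1.53 ± 0.179 to 21.9 ± 1.33 and Atf3 from 199 ± 16.7 to 746 ± 20.1. The gene called lower was Fosb, named after its values were seen, with 47 reads over the 3 M0 libraries and 0 over those of IFNγ + LPS, and taking 3 reads for the latter group as the limit it was at least 11.3-fold lower. In IFNγ + LPS, DGAT1i lowered 3 of the 9, Batf (log2 -1.14, adjusted p = 1.44e-07), Batf2 (-0.54, adjusted p = 2.46e-10) and Jdp2 (-0.32, adjusted p = 3.39e-05), and raised Atf3 (0.22, adjusted p = 8.88e-04), against 16.3% of all genes lower and 13.5% higher. In M0, Jdp2 (0.51, adjusted p = 0.0211) and Atf3 (0.24, adjusted p = 7.74e-04) were higher with the inhibitor, against 11.0% of all genes, and the call for Jdp2 was lost with DESeq2 (adjusted p = 0.0553). The difference between the 2 effects was called for Jdp2 (-0.83, adjusted p = 5.04e-04) and Batf2 (-0.71, adjusted p = 0.0486), against 9.80% of all genes called lower. The call for Batf2 was lost with DESeq2 (adjusted p = 0.0824) and with library size only (adjusted p = 0.0695).

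Of 8 large Maf and CNC genes, the proteins that pair with or resemble small Maf proteins, 5 had enough reads. On activation 2 rose and 3 fell, against 37.1% and 36.2% of all genes. Nfe2l1, which encodes NRF1, rose by 1.29 (adjusted p = 2.85e-29), and Bach1, a repressor that pairs with small Maf proteins, rose by 1.23 (adjusted p = 6.32e-27). Maf, which encodes c-Maf, changed by -0.87 (adjusted p = 7.67e-21). With DGAT1i in IFNγ + LPS, Bach1 was higher (0.22, adjusted p = 0.00105), and Maf (-0.64, adjusted p = 1.59e-12) and Nfe2l1 (-0.14, adjusted p = 0.0292) were lower, against 13.5% and 16.3% of all genes. Maf was at 189 ± 10.4 CPM without and 122 ± 8.53 CPM with the inhibitor (SD, n = 3).

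Among 15 other early response genes, 13 were tested, of which 8 rose and 5 fell on activation, against 37.1% and 36.2% of all genes. DESeq2 called 7 higher and 4 lower, without Btg2 (adjusted p = 0.0956) and Klf2 (adjusted p = 0.105). Klf4 and Klf6 encode zinc finger factors of the Krüppel-like family, Myc a driver of growth and Csrnp1 a nuclear protein induced by AXIN1. Klf6 went from 288 ± 14.6 to 1442 ± 45.2 CPM (SD, n = 3), Klf4 from 8.20 ± 1.32 to 132 ± 11.9 and Csrnp1 from 4.30 ± 0.230 to 39.6 ± 4.79. Myc fell from 34.4 ± 3.35 to 0.343 ± 0.442 CPM, the latter from 5 reads over 3 libraries. With DGAT1i in IFNγ + LPS, 2 were higher and 3 lower, against 13.5% and 16.3% of all genes. Ier3 was higher (0.84, adjusted p = 1.49e-09) and so was Csrnp1 (0.59, adjusted p = 9.26e-06), whereas Klf4 (-1.36, adjusted p = 4.01e-20) and Btg2 (-0.92, adjusted p = 1.05e-04) were lower. In M0, Ier3 was higher (0.61, adjusted p = 0.0263), and Btg2 (-0.60, adjusted p = 0.00374) and Myc (-0.29, adjusted p = 0.0313) were lower, against 11.0% and 13.4% of all genes. With DESeq2 the calls for Ier3 (adjusted p = 0.0702) and Myc (adjusted p = 0.184) in M0 were lost. The groups of Btg2 overlapped there.

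Genes upstream of the early response were followed as well. The list of the serum response factor, its cofactors and the EGR corepressors had 8 genes in the table. Of these, 3 rose and 5 fell on activation, against 37.1% and 36.2% of all genes. With scaling by library size only, 1 rose and 5 fell, and 25.0% of the 9342 calls over all genes were then higher. The EGR corepressors moved apart, with Nab1 at 1.05 (adjusted p = 2.42e-22) and Nab2 at -0.56 (adjusted p = 8.01e-09). Of the cofactors, Mrtfb changed by -0.80 (adjusted p = 4.64e-13) and Elk3 by -0.94 (adjusted p = 4.99e-12). With DGAT1i in IFNγ + LPS, Mrtfb was higher (0.44, adjusted p = 9.16e-05), and Srf (-0.33, adjusted p = 0.0223) and Nab1 (-0.21, adjusted p = 0.00747) were lower, against 13.5% and 16.3% of all genes, and the call for Srf was lost with DESeq2 (adjusted p = 0.0682). Of 15 MAP kinase genes, 7 rose, 6 fell and 2 were not called on activation, against 37.1% and 36.2% of all genes called higher and lower. With scaling by library size only, 3 rose and 9 fell. In that setting 9342 of all genes were called, and 25.0% of these calls were higher, so that the counts moved as those over all genes did. Map3k8, which encodes the kinase TPL2, rose by 1.50 (adjusted p = 7.08e-21), Mapk9, which encodes JNK2, by 1.30 (adjusted p = 6.69e-26) and Map2k1 by 0.93 (adjusted p = 1.54e-22), and Map3k5 fell by 1.43 (adjusted p = 4.91e-17). With DGAT1i in IFNγ + LPS, 5 were higher, among them Mapk3, which encodes ERK1 (0.56, adjusted p = 1.14e-06), Map3k5 (0.53, adjusted p = 0.00177), Map3k1 (0.25, adjusted p = 0.00611) and Map2k1 (0.16, adjusted p = 0.0197), and 10 were not called, against 13.5% of all genes called higher. DESeq2 called 4 higher, without Mapk14 (adjusted p = 0.0785). In M0, Mapk3 was at 0.26 (adjusted p = 0.00350) with overlapping groups, and the call was lost with DESeq2 (adjusted p = 0.0572). RNA levels do not give the activity of these kinases.

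The genes whose log2 CPM followed the members most closely over the 12 libraries differed between families. They are a description over samples that share the same 4 groups, and up to 2 with the highest Pearson r are named for each. Junb ran with Psmb8 (r = 0.999), Mafk with Znfx1 and Chmp4b (0.998 each), Egr2 with Glul (0.993) and Rab31 (0.992), and Jund with Gm11613 (0.993) and Acss2 (0.992). Fosl2 ran with Maged1 (0.991) and Trerf1 (0.987), Mafg with Sirt6 and Braf (0.991 each), Maff with Gm7160 (0.991) and Cstb (0.989), and Egr1 with Rasgrp4 (0.980) and Lsm11 (0.976). Fos (Plec, 0.967, and Mthfd2l, 0.961) and Jun (Cnpy2, 0.941, and Mxi1, 0.939) had the lowest such values. Maged1 was, like Fosl2, lowest in IFNγ + LPS and next lowest in that state with DGAT1i, with mean CPM of 66.5 in M0 and 10.1 in IFNγ + LPS, and of 63.2 and 32.4 with the inhibitor.

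Some of the genes overlap others in GENCODE M21, and whether the counts use strand is not given in the sources used here. Exons of Junb share 173 bases with Prdx2 on the opposite strand, which had 9796 reads over the 12 libraries against 11368 for Junb. Those of Mafk share 169 with Tmem184a, also on the opposite strand, with 9 reads against 4584. Jun shares 232 bases with the antisense gene Junos, which had 115 reads against 9462 for Jun. Jund shares 877 bases with the antisense gene Gm11175, which had 20 reads against 6636. Mafg shares 124 bases with Sirt7 on the same strand, which had 4810 reads against 12045. Reads in these stretches could belong to either gene.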

How the data were processed

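RNA was sequenced from 12 libraries of mouse macrophages, 3 in each of 4 groups taken from the deposited labels. The authors deposited raw read counts per gene, without normalization, made with the pipeline of their institute. The submitters' processing notes name GRCm38 and DESeq2, while aligner, counting tool and annotation are, like the strand setting, not given in the sources used here. The study names a stranded TruSeq kit and the labels a NEBNext kit. Symbols and positions are those of GENCODE M21 (GRCm38).

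The counts were fitted with edgeR 4.0.16 under R 4.3.3. filterByExpr kept 11760 genes, libraries were scaled by TMM, and glmQLFit (robust) was fitted to all 12 libraries with 1 mean per group and no covariate. Contrasts were tested with edgeR's quasi-likelihood test, p-values were adjusted by Benjamini-Hochberg over all genes, and a call was made at an adjusted p under 0.05. The SE was derived as the absolute log2 fold change over the square root of the test's F. The 95% confidence intervals were built on this SE and are approximate for genes with few reads. For Fosb on activation the interval was -13.95 to 0.46, although that test gave an adjusted p of 6.16e-08. The script was tested on simulated data. CPM per kb used the merged exon length. Correlations used log2 CPM with a prior count of 2.

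The 10 genes and the lists were chosen with earlier results of these data known. Of each list at most 4 genes per contrast are named, those with the smallest p, and exceptions are stated. Some items are not reported here. Alternatives were RLE size factors, library size only, no filter, a mean CPM of at least 1, DESeq2 1.42.0, fits of only the 6 libraries compared, a replicate block, and fits that each left out 1 library. Depth of 4996014 to 6621671 reads leaves genes near 1 CPM on a few reads, and floors cover counting error only. Figures were drawn with matplotlib 3.10.9.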

Additional observations from a re-analysis of the deposited data

Results flagged for a closer look

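The effect of DGAT1i differed between IFNγ + LPS and M0 for 4 of the 10 genes, by a test of the difference itself (edgeR, adjusted over 11760 genes), 3 higher and 1 lower, against 8.66% and 9.80% of all genes. The count was 3 with DESeq2 and 3 to 4 when 1 library was left out. The log2 difference was 1.62 for Egr2 (adjusted p = 4.89e-04). Its activated libraries with the inhibitor were all above those without, and its resting ones all below. At rest the change was not called (-0.23, adjusted p = 0.106). In IFNγ + LPS the call rested on few reads and was lost without replicate 1 of the group with DGAT1i (0.93, adjusted p = 0.0621). The difference was then 1.17 (adjusted p = 0.0305). The log2 difference was 0.84 for Fosl2 (adjusted p = 8.33e-06), whose activated libraries with the inhibitor were all above those without. It was -0.30 for Mafg (adjusted p = 0.00409), where the inhibitor's libraries stood apart at rest. It was 0.23 for Jun (adjusted p = 0.0476), a call that was lost in 10 of the 12 fits that left out 1 library.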

How the results depend on the processing

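Over 50 results (10 genes in 5 contrasts) and 19 other settings, 939 values were computed, of which 906 kept their direction and their side of the threshold, 20 lost the call, 1 gained it and 12 changed sign. With the replicate number as a block, none of the 50 changed its call (members called 10, 6, 2, 9 and 4, as without it). Whether the numbers pair the libraries is not known. The 18 correlations of deviations between libraries of the same number ran from -0.022 to 0.069, and those of other pairs from -0.058 to 0.038. Of 12 libraries, 10 had a higher mean correlation with their own number than with the other numbers pooled. Since a weak pairing would also give small values, these correlations do not decide it.

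Leaving out 1 library, the members called were 9 to 10 for IFNγ + LPS and 4 to 6 for DGAT1i in IFNγ + LPS. They were 2 to 2 for DGAT1i in M0, 9 to 9 for IFNγ + LPS with DGAT1i and 3 to 4 for the difference. In the same order, the counts over all genes were 8256 to 8778, 2916 to 3567, 2270 to 3017, 7952 to 8378 and 1881 to 2160. The sign changed for values near 0. For DGAT1i in IFNγ + LPS these were Fos with no filter (-0.01) or without replicate 3 of that group with DGAT1i (-0.04, the values without 1 library reaching 0.08), and Maff without replicate 1 of IFNγ + LPS (0.04, others reaching -0.25). For DGAT1i in M0 they were Egr1 with library size only (-0.03), without M0 replicate 3 (-0.27, others reaching 0.22) or without replicate 3 with DGAT1i (-0.07), Junb without replicate 2 of M0 (0.02) or of M0 with DGAT1i (0.04, others reaching -0.05), and Mafk without M0 replicate 1 (0.04) or without replicate 2 with DGAT1i (0.00, others reaching -0.09). The difference for Jund was 0.04 without M0 replicate 3 and down to -0.17 without other libraries.

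Library size only moved the median of all genes to -0.46 for IFNγ + LPS, and the share of calls that were higher from 50.6% to 25.0%. Mafg was then at 0.33, Jund at 0.72 and Jun at -0.64. With DGAT1i in both groups the median was -0.43 and the share went from 50.0% to 25.5%, Jun changed from 0.06 to -0.36 (adjusted p = 2.60e-07), Fosl2 from -0.72 to -1.15 and Jund from 1.11 to 0.69, and Mafg lost its call (0.08). For DGAT1i in M0 the share went from 45.2% to 29.7%, and Egr2 became called (-0.29, adjusted p = 0.0398). For the difference it went from 46.9% to 58.2%. The difference for Jun was not called with no filter (0.19, adjusted p = 0.240), a mean CPM of at least 1 (0.23, adjusted p = 0.0506) or DESeq2 (0.24, adjusted p = 0.0837), and its values without 1 library ran from 0.18 to 0.26. The cause was not tested. Egr1, Egr2 and Maff rest on few reads in their low groups, which limits what can be seen there.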
